A study of Mus musculus with 11 samples.

Results

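The genes described here are 34 genes of the dermal fibroblast and of the matrix it lays down, taken by symbol from the 38406 genes of the deposited table. They were read in all 11 libraries of back skin from female C57BL/6 mice, 8 to 10 weeks old. Each mouse had 125 mg of 5% imiquimod cream on its shaved back daily for 4 days, and skin was taken 24 hours after the last dose. Imiquimod activates the innate receptor TLR7, and its cream is used to raise psoriasis-like inflammation in mouse skin. The groups were 5 wild-type mice (replicates 2 to 6) and 6 mice with a knockout of Trex2 (replicates 7 to 12), an exonuclease made mainly by keratinocytes. The knockout line was described earlier, and RNA came from whole pulverized skin, in which all cell types are mixed. Both groups had imiquimod and no untreated skin was analysed here, so each value compares genotypes within treated skin. All 34 genes had a mean of at least 10 normalized counts, the minimum for testing, and stood among the 13215 genes tested. Fibromodulin, Fmod, reached that mean only through its level in knockout skin.

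Fibroblasts of the dermis secrete collagens I, III and V, which assemble into fibrils, and collagen VI, which forms a finer network of beaded filaments. Small leucine-rich proteoglycans bind the fibrils and set their spacing and thickness, while fibrillins, fibulins and elastin build the elastic fibres. Lysyl oxidases cross-link both kinds of fibre, and matricellular proteins such as tenascin C and periostin, which carry signals rather than load, are known to accumulate in wounded and inflamed dermis. RNA from whole skin does not tell apart fewer fibroblasts and less RNA per fibroblast.

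The library totals were 1208896 to 5853454 reads for wild type against 3125366 to 15557862 for knockout, so the knockout libraries were deeper (two-sided exact permutation test, p = 0.0281). In normalized counts, Trex2 averaged 1479.6 ± 446 for wild type and 1.85 ± 0.909 for knockout (SD, n = 5 and 6), with a log2 fold change of −9.03 (SE 0.25) at an adjusted p of 5.5e-11 by limma, and no library went against its genotype label. Keratinocyte markers stood highest in knockout replicates 9 and 12: each of the 12 markers read was higher in both than in the other 4 knockout libraries. Their summed level was 308831 and 287118 normalized counts there, within a range of 56731 to 158674 across wild type and 100402 to 308831 across knockout. Many results below are therefore also given without replicates 9 and 12. The part of keratinocyte content in the fibroblast results was not tested.

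No fibroblast or matrix gene passed an adjusted p of 0.05 between genotypes. Most stood slightly lower in knockout skin, with a median log2 fold change of −0.26 against 0.01 over all genes tested. Of the 34, 27 had a negative log2 fold change and 7 a positive one, where 49% of all genes tested were negative and 51% positive. Fmod is among the 7, and its positive sign was favoured by the minimum for testing, which it reached only through knockout skin. Without knockout replicates 9 and 12 Fmod was under the minimum for testing, and the median over the other 33 genes was −0.14. At an unadjusted p under 0.05, limma gave 7 genes lower in knockout (Thy1, Sparc, Bgn, Pcolce, Fap, Loxl1 and Vim) and 1 higher (Postn). Over all genes tested 11.5% were lower and 12.9% higher at that level, so the 1 higher gene is below the background share and the 7 lower genes, 20.6% of the 34, are above it. Without replicates 9 and 12 these counts were 5 lower and 0 higher of 33, against backgrounds of 6.02% and 6.52%. With log10 depth as a covariate they were 3 lower and 0 higher of 34, against 2.29% and 1.78% of all genes. At an adjusted p under 0.05 limma called 0.00757% of all genes lower, which is Trex2 alone, and 0.00757% higher. DESeq2 on recovered reads called 3 of the 34 lower, Sparc, Thy1 and Bgn, and 0 higher, against 2.15% lower and 2.21% higher over all genes. edgeR called 0 of the 34, against 0.0227% lower and 0.00757% higher. Without wild-type replicate 4, limma called Sparc, Thy1 and Pcolce lower and 0 higher, against 2.11% lower and 3.5% higher over all genes. Among wild-type libraries replicate 4 had the highest summed level of keratinocyte markers, at 158674 normalized counts. The part of this in those calls was not tested. The plot of log2 fold changes by role shows the 34 estimates with their standard errors.

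**Figure D1:**
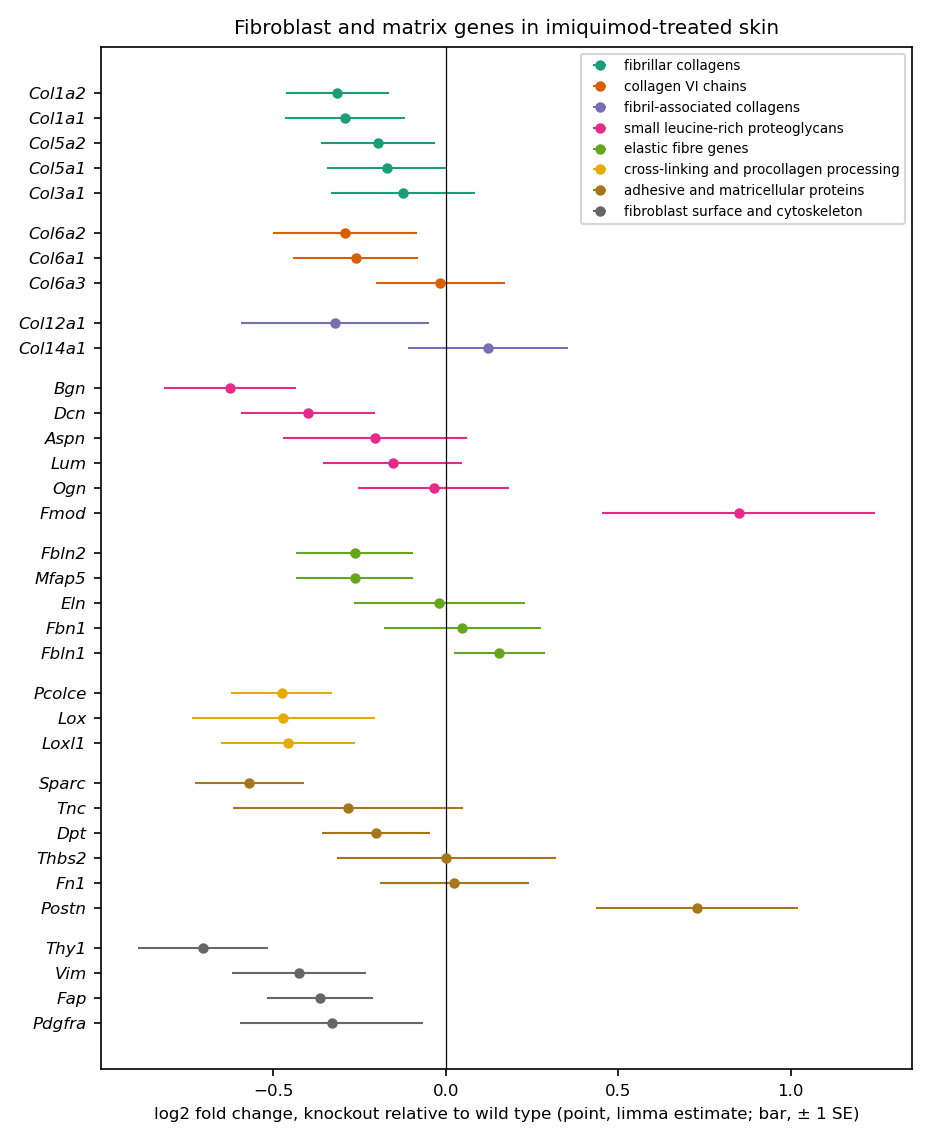
Log2 fold change of each of the 34 genes, knockout relative to wild type (x axis, on the log2(normalized count + 1) scale), with genes on the y axis coloured and grouped by role. Points are limma estimates and bars 1 SE, from 5 wild-type and 6 knockout libraries. Thy1 (−0.70) lies farthest to the left and Fmod (0.85) farthest to the right. Fmod reached the minimum for testing only through knockout skin, which favoured a positive estimate.

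Sparc encodes osteonectin, a matricellular glycoprotein that binds collagen. It had 9850.5, 10569, 8532, 11744 and 11558 normalized counts in wild-type replicates 2 to 6 and 7109, 8483, 6227, 7659.7, 7547 and 5390.1 in knockout replicates 7 to 12. Every knockout library lay below every wild-type library, which held for Sparc alone among the 34 and for 1.29% of all genes tested, while 0 of the 34 and 1.02% of all genes had every knockout library above. The lowest levels were in knockout replicates 9 and 12. The means were 10450.4 ± 1319 for wild type and 7069 ± 1105 for knockout (SD, n = 5 and 6), with a log2 fold change of −0.57 (SE 0.16) at an adjusted p of 0.108 by limma. The knockout mean was 32.4% lower, and the log2 fold change without replicates 9 and 12 was −0.43. DESeq2 gave an adjusted p of 0.0144 and limma without wild-type replicate 4, the lowest wild-type library for Sparc, gave 0.0455.

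Thy1 encodes the surface glycoprotein CD90, used to sort dermal fibroblasts and also carried by mouse T cells. It had 1657, 1449, 1231, 1529 and 1723 normalized counts in wild-type replicates 2 to 6 and 1009.8, 1082, 678, 1073, 1280.2 and 614 in knockout replicates 7 to 12. Of the 6 knockout libraries 5 lay below the lowest wild-type library, and replicate 11 lay just above it. The means were 1518 ± 193 for wild type and 956 ± 258 for knockout (SD, n = 5 and 6), with a log2 fold change of −0.70 (SE 0.19) at an adjusted p of 0.108 by limma, or −0.45 without knockout replicates 9 and 12. DESeq2 gave an adjusted p of 0.0329, and limma without wild-type replicate 4 gave 0.0449.

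Bgn encodes biglycan, a small proteoglycan of the collagen fibril surface. The annotation (GRCm38, GENCODE M21) places it on chromosome X from 73483602 to 73495933 on the plus strand, 48.3 kb from Trex2 itself, and no other of the 34 genes is on that chromosome. It had 3172, 5776, 4807, 4988 and 4516 normalized counts in wild-type replicates 2 to 6 and 2585, 3440.4, 2198, 4117, 3319.8 and 2505 in knockout replicates 7 to 12. The groups overlapped through wild-type replicate 2, which lay among the knockout libraries, while the other 4 lay above them. The means were 4652 ± 949.8 for wild type and 3028 ± 721 for knockout (SD, n = 5 and 6), with a log2 fold change of −0.63 (SE 0.19) at an adjusted p of 0.109 by limma, so the knockout mean was 34.9% lower. Without replicates 9 and 12 the estimate was −0.46. DESeq2 gave an adjusted p of 0.0416. Whether the closeness to the targeted gene bears on this difference was not tested.

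Pcolce encodes an enhancer of the protease that trims procollagen. It had 955, 1033, 733, 1048 and 1075 normalized counts in wild-type replicates 2 to 6 and 734, 797, 593, 844, 682 and 539.7 in knockout replicates 7 to 12. Wild-type replicate 4 was the 1 wild-type library inside the knockout range. The means were 969 ± 139 for wild type and 698 ± 117 for knockout (SD, n = 5 and 6), with a log2 fold change of −0.48 (SE 0.15) at an adjusted p of 0.11 by limma, or −0.33 without knockout replicates 9 and 12. Without wild-type replicate 4 limma gave an adjusted p of 0.0421.

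Postn encodes periostin, a matricellular protein that binds collagen and helps its cross-linking. It had 446, 817, 784, 628 and 581 normalized counts in wild-type replicates 2 to 6 and 919.6, 721, 1300.2, 1199, 585 and 2276 in knockout replicates 7 to 12. Of the 6 knockout libraries 4 lay above every wild-type library, and replicate 12 had the highest level of all. The means were 651 ± 152 for wild type and 1167 ± 608 for knockout (SD, n = 5 and 6), with a log2 fold change of 0.73 (SE 0.29) at an adjusted p of 0.16 by limma. Without knockout replicates 9 and 12 the log2 fold change was 0.38 (limma adjusted p = 0.477).

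**Figure D2:**
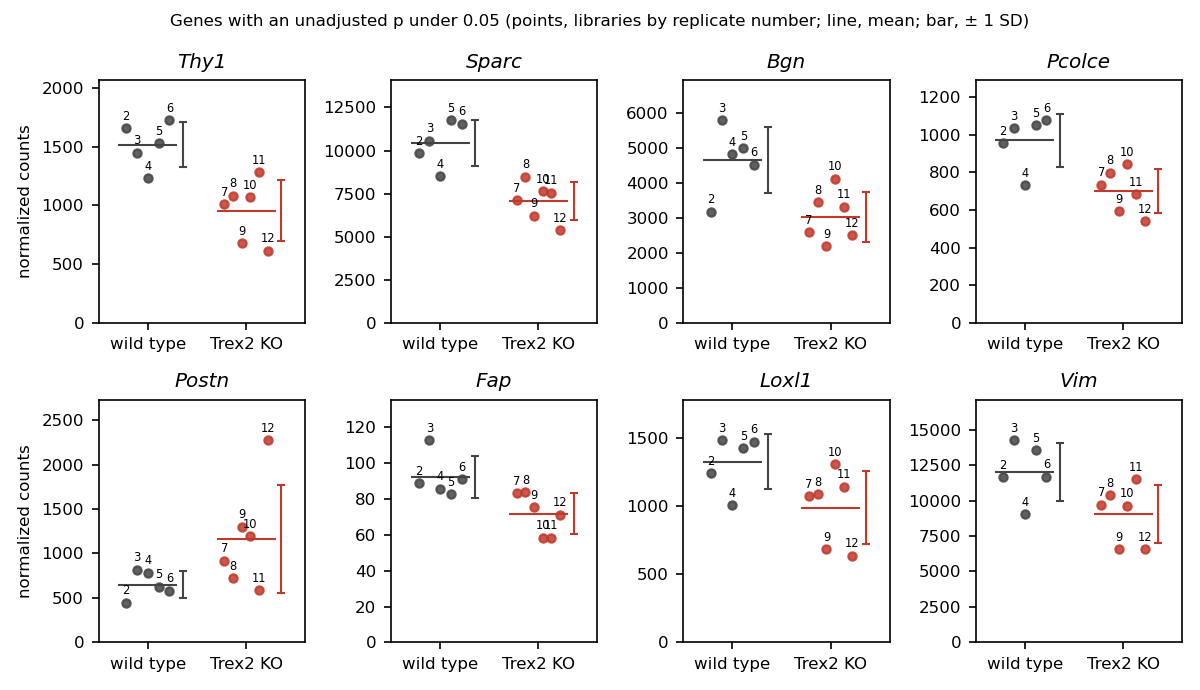
Normalized counts (y axis, from 0) of the 8 genes with an unadjusted p under 0.05, in order of p, for 5 wild-type and 6 Trex2 knockout (KO) libraries. Points are libraries marked with their replicate number, lines are means and bars 1 SD; in Sparc the groups do not overlap, in the other 7 genes they do.

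The stretches just upstream of the start site of Sparc, Bgn, Pcolce and Postn are shown because these are the genes of smallest p with an entry in the RefSeq promoter table, among them 3 with a lower mean and 1 with a higher mean in knockout. The table (GRCm38.p6) held 25 windows of 21 of the 34 genes. In GENCODE M21 the minus-strand genes Sparc and Pcolce begin farther upstream, at 55423183 and 137613784. Their printed stretches therefore lie inside the annotated genes. The 150 bases before the start site are printed 5′ to 3′ on the gene's strand, from chr11:55420081-55420230, minus strand for Sparc, chrX:73483451-73483600, plus strand for Bgn, chr5:137611405-137611554, minus strand for Pcolce and chr3:54360957-54361106, plus strand for the second of the 2 Postn windows. Capitals mark CAGACA, a sequence bound by SMAD proteins of the TGF-beta pathway, in Sparc, the GC box GGGCGG in Bgn and Pcolce, and the TATA box TATAAA in Postn, each on either strand.
Sparc: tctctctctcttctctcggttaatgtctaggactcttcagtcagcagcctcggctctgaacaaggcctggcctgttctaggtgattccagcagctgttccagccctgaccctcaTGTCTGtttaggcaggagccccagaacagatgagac
Bgn: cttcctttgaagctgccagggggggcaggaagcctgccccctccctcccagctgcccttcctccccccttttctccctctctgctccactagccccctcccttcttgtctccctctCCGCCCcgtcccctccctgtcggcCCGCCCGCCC
Pcolce: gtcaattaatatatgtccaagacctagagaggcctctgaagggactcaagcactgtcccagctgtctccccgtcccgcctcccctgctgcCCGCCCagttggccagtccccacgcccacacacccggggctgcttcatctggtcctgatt
Postn: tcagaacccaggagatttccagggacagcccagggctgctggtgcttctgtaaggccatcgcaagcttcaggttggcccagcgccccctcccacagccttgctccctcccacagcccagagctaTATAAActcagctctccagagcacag
The match nearest the start site began 36 bases before it in Sparc, 60 in Pcolce and 26 in Postn. Bgn held 3 matches, of which 2 overlap. The first Postn window, not printed, held 0 matches of TATAAA in its 150 bases. In the 250 bases upstream, TATAAA on either strand was in 8 of the 25 windows (32% of them, against 12.4% of all 32851 windows in the table). GGGCGG was in 11 (44%, against 32.7%), CAGACA in 8 (32%, against 17.1%) and CCAAT in 4 (16%, against 33.8%). These are matches of letters and say nothing of binding.

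No collagen of the fibril differed between genotypes past the threshold. Col1a1 and Col1a2 encode the chains of collagen I. Col1a1 had 7754 to 11669.6 normalized counts across wild type and 6276 to 10582 across knockout, and Col1a2 had 8460.4 to 11169 normalized counts across wild type and 6882 to 10127 across knockout. For Col1a2 5 of the 6 knockout libraries lay below the lowest wild-type library, and replicate 10 lay high. Its means were 9694 ± 1236 for wild type and 7812 ± 1174 for knockout (SD, n = 5 and 6), with a log2 fold change of −0.31 (SE 0.15) at an adjusted p of 0.214 by limma, and Col1a1 stood at −0.29 (adjusted p = 0.305 in limma). Col3a1, the collagen of thin and early fibrils, had 13516 to 25158 normalized counts across wild type and 16789 to 27821 across knockout, with wild-type replicate 2 lowest and knockout replicate 10 highest (log2 fold change −0.12, or 0.06 with quantile normalization). Col5a1 and Col5a2, whose protein starts fibrils, stood at −0.17 and −0.20, or −0.09 and −0.09 without knockout replicates 9 and 12. All 5 of these genes were negative, with a median of −0.20, or −0.09 without those 2 libraries, and 0 had an unadjusted p under 0.05 in limma.

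Among the collagen VI chains, Col6a1 had 1326 to 2409.7 normalized counts across wild type and 1059 to 1686 across knockout. Wild-type replicates 3 and 5 were high and the other 3 lay within the knockout range (log2 fold change −0.26, or −0.14 without knockout replicates 9 and 12). Col6a2 showed the same libraries high and stood at −0.29, or −0.14 without replicates 9 and 12, while Col6a3 stood at −0.02, a value that turned positive in several alternatives, TMM and quantile scaling among them. Of the fibril-associated collagens, Col12a1 had 833, 871, 1047, 851 and 932 normalized counts in wild-type replicates 2 to 6 and 467, 601, 499, 1379.9, 1280.2 and 578 in knockout replicates 7 to 12. The wild-type libraries lay close together and inside a gap of the knockout libraries, of which 4 were below and 2 above them (log2 fold change −0.32, SE 0.27, or −0.11 without replicates 9 and 12). Col14a1 stood at 0.12, or −0.09 without replicates 9 and 12.

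The small leucine-rich proteoglycans stood apart from each other by library. Dcn, which encodes decorin, had 16069.6, 18519.8, 15027, 21876 and 20207 normalized counts in wild-type replicates 2 to 6 and 14899, 16421, 9637, 16857, 15541 and 11074 in knockout replicates 7 to 12. Knockout replicates 9 and 12 were the 2 lowest of the 11, and the log2 fold change of −0.40 (SE 0.19) was −0.19 without them. Aspn (asporin) and Ogn (osteoglycin) stood the other way in those libraries, where both were higher than in the other 4 knockout libraries. Aspn had 59.9 to 104 normalized counts across wild type and 44.4 to 138 across knockout and a log2 fold change of −0.20, or −0.52 without replicates 9 and 12. Ogn stood at −0.04, or −0.27 without them, and Lum (lumican) at −0.15, or −0.29. Fmod, the least abundant of the 34, had 5.44, 4.51, 5.56, 13.6 and 4.71 normalized counts in wild-type replicates 2 to 6 and 12.1, 7.62, 13.5, 17, 5.89 and 22.6 in knockout replicates 7 to 12. These rest on 1 to 65 reads a library, with 1 read in wild-type replicate 3, and its log2 fold change was 0.85 (adjusted p = 0.205 by limma, SE 0.40). With log10 depth as a covariate it was 0.39. The direction of Fmod was favoured by the minimum for testing, which it reached only through knockout skin.

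Elastic fibre genes stood near 0, with a median of −0.02, or 0.10 without knockout replicates 9 and 12. Fbn1, the microfibril protein fibrillin 1, had 579 to 1250.0 normalized counts across wild type and 757 to 1637 across knockout and a log2 fold change of 0.05, or 0.11 without those libraries. Eln, elastin, had 116 to 352 normalized counts across wild type and 169 to 282 across knockout, with the lowest value in wild-type replicate 2, and stood at −0.02. The direction of Eln turned with TMM scaling (0.02) and without knockout replicates 9 and 12 (0.10). Fbln1 stood at 0.16, with 4 knockout libraries above the highest wild-type one, while Fbln2 and Mfap5 stood at −0.26 and −0.26, or −0.21 and −0.14 without replicates 9 and 12. The 3 genes of cross-linking and processing (Lox, Loxl1 and Pcolce) had a median of −0.47, or −0.33 without those libraries. Lox, which encodes lysyl oxidase, had 397 to 1133 normalized counts across wild type and 418 to 950.1 across knockout and stood at −0.47 (SE 0.26, limma adjusted p = 0.282), or −0.35 without replicates 9 and 12. Loxl1, the lysyl oxidase tied to elastin, had 1243, 1485, 1006, 1422 and 1472 normalized counts in wild-type replicates 2 to 6 and 1071, 1086, 684, 1305, 1143 and 637 in knockout replicates 7 to 12. Its lowest libraries were knockout replicates 9 and 12, and the log2 fold change of −0.46 was −0.19 without them.

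Tnc, tenascin C, and Thbs2, thrombospondin 2, are matricellular proteins, and of the 34 genes they spread most among knockout libraries, with SDs of 0.81 and 0.75 on the log2 scale against 0.28 and 0.39 in wild type. Tnc had 12845, 14454, 10715, 18124 and 14715 normalized counts in wild-type replicates 2 to 6 and 10739, 11980.4, 5288, 19826, 22772 and 7443 in knockout replicates 7 to 12. Knockout replicates 9 and 12 were the 2 lowest and replicates 10 and 11 the 2 highest of all libraries. Its log2 fold change was −0.28 (SE 0.33) over all libraries and 0.15 without replicates 9 and 12. Thbs2 had 1403 to 2848 normalized counts across wild type and 829 to 3735 across knockout, with the same knockout libraries at the ends except that wild-type replicate 2 lay below replicate 12, and stood at 0.00, or 0.40 without replicates 9 and 12. Fn1, fibronectin, stood at 0.02, or 0.08, and Dpt, dermatopontin, at −0.20, or −0.26.

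The fibroblast surface and cytoskeleton genes were negative in all 4. Pdgfra, the receptor for PDGF that marks fibroblasts, had 842, 1620.0, 1272, 1727 and 1379 normalized counts in wild-type replicates 2 to 6 and 996, 1202, 549, 1577, 1569.6 and 851 in knockout replicates 7 to 12. The groups overlapped over most of their range, and the log2 fold change of −0.33 (SE 0.27) was −0.02 without knockout replicates 9 and 12. Fap, a serine protease on the surface of activated fibroblasts, had 88.9, 113, 85.6, 82.6 and 91 normalized counts in wild-type replicates 2 to 6 and 83.3, 83.9, 75.4, 58.4, 58.4 and 71.1 in knockout replicates 7 to 12. Here the 2 lowest were replicates 10 and 11, and the log2 fold change was −0.36 (SE 0.15), or −0.39 without replicates 9 and 12 and −0.11 with log10 depth as a covariate. Vim, the intermediate filament protein of all mesenchymal cells, had 9031 to 14264 normalized counts across wild type and 6554 to 11485 across knockout, with a log2 fold change of −0.43 (SE 0.19) at an adjusted p of 0.198 by limma, or −0.21 without replicates 9 and 12. Over the 4 genes the median was −0.39, against −0.20 for the fibrillar collagens, −0.18 for the proteoglycans and −0.02 for the elastic fibre genes. Without knockout replicates 9 and 12 the medians were −0.30, −0.09, −0.29 (over 5 proteoglycans, Fmod not being tested) and 0.10, so the surface genes and the proteoglycans then lay side by side and the elastic fibre median was positive. These medians over 4 to 6 genes were compared by no test.

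Among knockout libraries, replicates 9 and 12 were the 2 lowest for 13 of the 34 genes (38.2%, against 17.1% of all genes tested). They were the 2 highest for 4 (Col14a1, Ogn, Aspn and Postn), which is 11.8% against 17.1%. The 13 were Col6a1, Col6a2, Dcn, Bgn, Mfap5, Loxl1, Pcolce, Sparc, Tnc, Thbs2, Pdgfra, Thy1 and Vim, and held none of the fibrillar collagens. In the lists read below, replicates 9 and 12 were the 2 lowest for 54.2% of collagen synthesis genes and 50% of other fibroblast genes. The share was 50% for basement membrane, 27.3% for the TGF-beta pathway, and from 0% (keratinocytes) to 100% (endothelium) among marker lists. The pattern was thus not particular to the 34. These counts were chosen after the values were seen. The map of centred levels shows the same pattern by library.

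**Figure D3:**
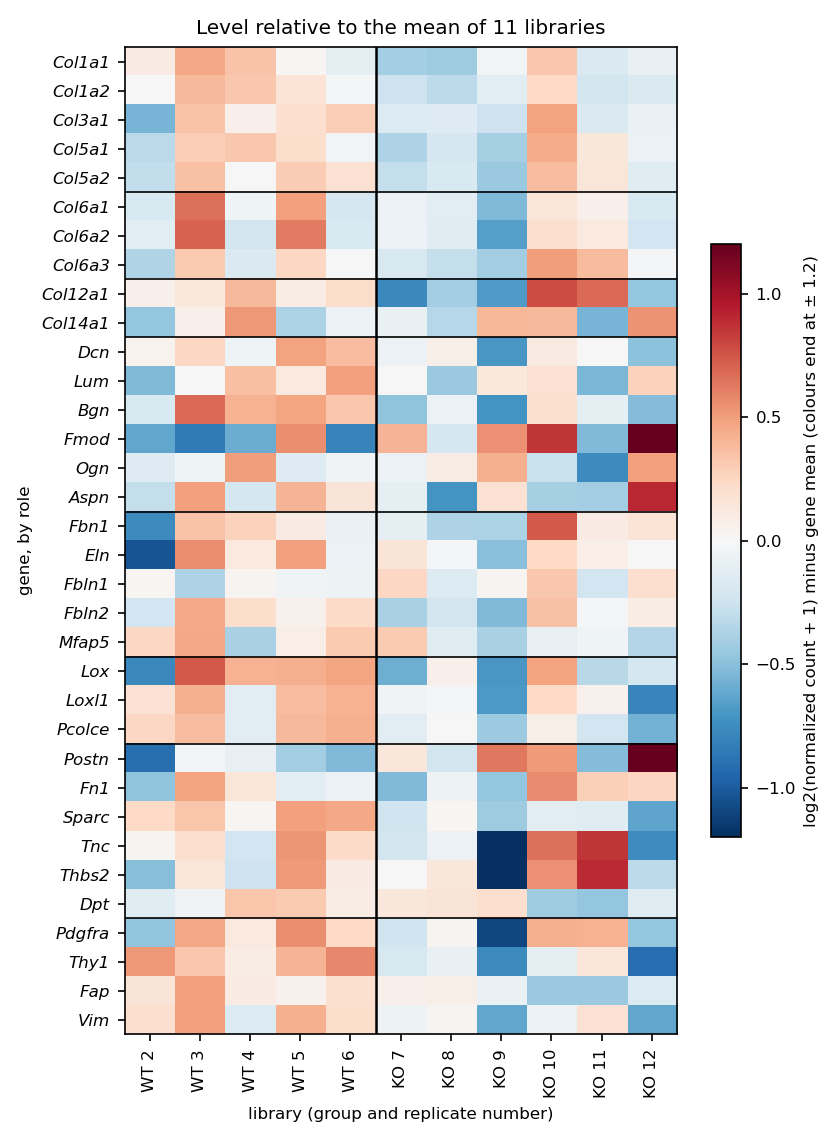
Level of each of the 34 genes (y axis, grouped by role with lines between roles) in each library (x axis; WT, wild type; KO, knockout). Colour is log2(normalized count + 1) minus the gene's mean over 11 libraries, and ends at ± 1.2. In KO 9 and KO 12 Dcn, Bgn, Sparc, Thy1 and Vim are blue while Postn, Ogn and Aspn are red.

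Ratios of 2 genes within a library do not depend on the scaling of libraries, and 10 such ratios of normalized counts were compared between genotypes by an exact permutation test (462 splits, two-sided, adjusted over the 10). None passed, and a p above the threshold does not show that ratios were equal. Col1a1 over Col1a2 had the narrowest range, at 0.891 to 1.06 across wild type and 0.886 to 1.06 across knockout (difference in mean log2 ratio 0.02, exact permutation p = 0.71, adjusted p = 0.791). Its highest value was 1.2 times its lowest. Col6a2 over Col6a1 was 0.944 to 1.17 across wild type and 0.972 to 1.11 across knockout (difference in mean log2 ratio −0.03, exact permutation p = 0.58, adjusted p = 0.791), so these chains also kept close proportions, their highest ratio being 1.24 times the lowest. Col6a3 over Col6a1 was 0.785 to 1.15 across wild type and 0.887 to 1.28 across knockout (difference in mean log2 ratio 0.25, exact permutation p = 0.0952, adjusted p = 0.476). Among genes of different proteins the ratios were looser. Fbln2 over Fbln1 was 1.84 to 3.88 across wild type and 1.4 to 2.52 across knockout (difference in mean log2 ratio −0.42, exact permutation p = 0.0952, adjusted p = 0.476). Col3a1 over Col1a1 was 1.5 to 3.15 across wild type and 2.04 to 2.84 across knockout (difference in mean log2 ratio 0.17, exact permutation p = 0.398, adjusted p = 0.725), and its lowest value was in wild-type replicate 2. Proteoglycan ratios overlapped between genotypes as well. Bgn over Dcn was 0.197 to 0.32 across wild type and 0.174 to 0.244 across knockout (difference in mean log2 ratio −0.23, exact permutation p = 0.184, adjusted p = 0.613). Lum over Dcn was 0.0332 to 0.0659 across wild type and 0.0339 to 0.0874 across knockout, with the 2 highest values in knockout replicates 9 and 12 (difference in mean log2 ratio 0.24, exact permutation p = 0.435, adjusted p = 0.725). Tnc over Fn1 varied most, at 17.1 to 35.3 across wild type and 11 to 33 across knockout (difference in mean log2 ratio −0.31, exact permutation p = 0.381, adjusted p = 0.725). The other ratios, Col5a1 over Col5a2 and Eln over Fbn1, had adjusted p = 0.792 and 0.791 in the exact permutation test.

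**Figure D4:**
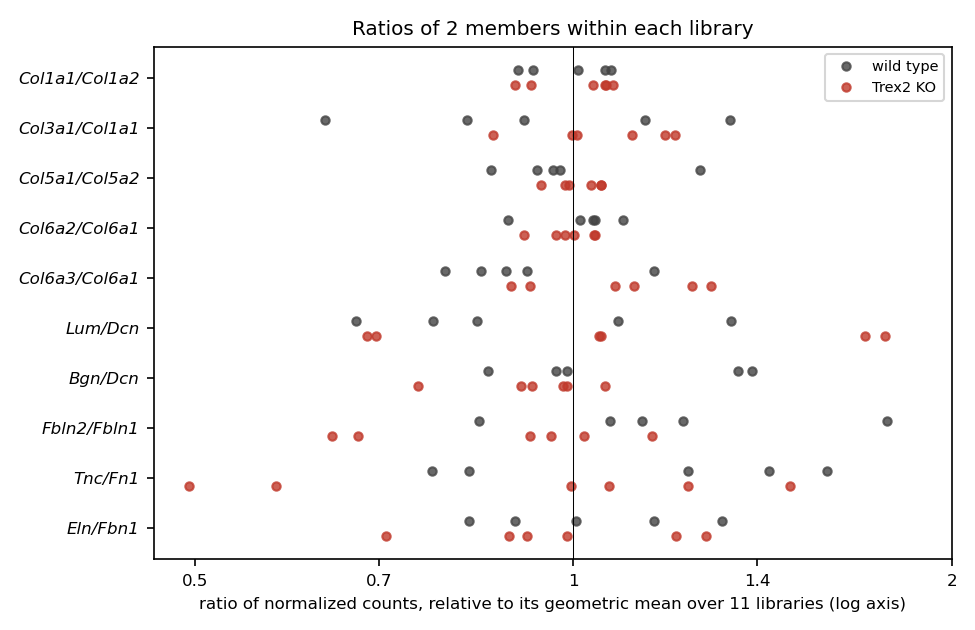
Ratio of normalized counts of 2 genes in each library (x axis, relative to the geometric mean of that ratio over 11 libraries, log axis) for 10 pairs (y axis), with 5 wild-type and 6 Trex2 knockout (KO) libraries as points. The points of Col1a1/Col1a2 span the narrowest range and those of Tnc/Fn1 the widest, and the genotypes overlap in each pair.

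Per kb of the principal transcript, Dcn was the most abundant of the 34 in both groups, at 10432 ± 1613 normalized counts per kb for wild type and 8004 ± 1702 for knockout (SD, n = 5 and 6). Vim came second with 5488 ± 929.8 per kb in wild type and 4131 ± 930.0 in knockout. On that scale Sparc stood above Col3a1 in wild type, with 4544 ± 573 against 3837 ± 843, and below it in knockout, with 3074 ± 481 against 3497 ± 746, differences smaller than the SD of Col3a1 in each group. Tnc followed at 1996 ± 384 per kb in wild type, above Bgn (1923 ± 393) and Col1a2 (1813 ± 231) by less than its SD. Fmod was the lowest at 2.17 ± 1.24.

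Other genes of matrix production passed no adjusted threshold in limma either. Their counts at an unadjusted p under 0.05 stand against 11.5% lower and 12.9% higher over all genes tested, and against 6.02% and 6.52% without knockout replicates 9 and 12. Of 26 genes of collagen synthesis and folding 24 were tested, with 9 lower and 1 higher at that level and a median log2 fold change of −0.35. Without replicates 9 and 12 they were 3 lower and 0 higher, with a median of −0.21. Loxl3 and Loxl2, 2 further lysyl oxidases, stood at −1.03 and −0.61 (limma adjusted p = 0.108 for each), or −0.68 and −0.42 without those libraries. DESeq2 gave adjusted p = 0.0297 and 0.0497. For 2 of the 24 genes, Loxl3 among them, every knockout library lay below every wild-type library. Of 30 other fibroblast genes 28 were tested, with 12 lower and 0 higher at an unadjusted p under 0.05. Their median was −0.38. Without replicates 9 and 12 these values were 6, 0 and −0.18. In normalized counts, Efemp2, a fibulin needed for elastic fibres, averaged 650.0 ± 95.3 for wild type and 368 ± 81.9 for knockout (SD, n = 5 and 6), with a log2 fold change of −0.84 (SE 0.17) at an adjusted p of 0.108 by limma. Serpinf1, which encodes the anti-angiogenic factor PEDF, averaged 1349 ± 177 for wild type and 839 ± 136 for knockout, with a log2 fold change of −0.69 (SE 0.14) at an adjusted p of 0.108 by limma. For both of these genes every knockout library lay below every wild-type library, as for 3 of the 28 genes and 1.29% of all genes tested. DESeq2 gave adjusted p = 0.00677 and 0.00457, and it called 2.15% of all genes lower. Without replicates 9 and 12 the log2 fold changes of Efemp2 and Serpinf1 were −0.65 and −0.56. Of 22 genes of the TGF-beta pathway, a main inducer of matrix genes, 4 were lower and 2 higher, with Ltbp4, which holds latent TGF-beta in the matrix, at 0.47 and the inhibitor Smad7 at −0.62. The TGF-beta median was −0.12, and without replicates 9 and 12 it was 0.04, with 0 lower and 2 higher. Of 14 basement membrane genes tested 1 was lower and 2 were higher at that level, the higher ones being Agrn (0.76) and the keratinocyte collagen Col17a1 (1.22). The basement membrane median was −0.05, and without replicates 9 and 12 it was 0.09, with 0 lower and 2 higher.

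Markers of other cells differed between genotypes beside the fibroblast genes, and their part in these results was not tested. Summed levels, in normalized counts, were 102482 to 138262 across wild type and 78014 to 133095 across knockout for the 34 genes. Of 12 keratinocyte markers 8 were higher at an unadjusted p under 0.05, with the smallest p in Dsp and Trp63, and 3 without knockout replicates 9 and 12. The shares of all genes are those given above, 12.9% higher and 11.5% lower, or 6.52% and 6.02% without the 2 libraries. All 10 neutrophil markers were lower (summed level 49312 to 117359 across wild type and 17499 to 87433 across knockout), with the smallest p in Stfa2l1 and Mmp9, and 4 were without the 2 libraries. Of 10 endothelial markers 4 were lower, and 0 without them (Emcn and Esam first, summed level 3786 to 5614 across wild type and 2067 to 4773 across knockout), and each of the 10 was lowest among knockout libraries in replicates 9 and 12. Of 10 smooth muscle and pericyte markers 3 were lower in either setting (summed level 10845 to 16226 across wild type and 6446 to 12824 across knockout), with Acta2 at −0.58. Counts lower were 4 of 10 for adipocytes, 2 of 10 each for skeletal muscle and macrophages, 2 of 8 for Schwann cells and 1 of 4 tested for dermal papilla, while 2 of 3 tested hair follicle markers and 1 skeletal muscle marker were higher. Without the 2 libraries 0 adipocyte, skeletal muscle and papilla markers were lower, 2 each of macrophages and Schwann cells were, and 1 hair follicle, 2 skeletal muscle and 1 smooth muscle marker were higher. Krt31 of the hair list and Rspo2 of the papilla list were at 0 in every library, and no marker of the other lists was.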

How the data were processed

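RNA of pulverized skin was sequenced for 11 mice. The authors deposited normalized counts, here called a signal, each a gene's read count divided by 1 size factor per library. The build GRCm38 and the tools DESeq2 1.8.1, TopHat2 2.0.8 and featureCounts 1.4.6 are given per the submitters' processing notes, with roles, annotation version and strand setting not given in the sources used here. Without strand, reads of overlapping antisense genes cannot be told apart. Every value was a whole multiple of its library's value of 1 read (100% within 0.01 of a read), so whole reads were recovered for the count tests. The samples are biological replicates per the labels, with no batch or date given, every pair of libraries differed by more than sampling noise (chi-square over its degrees of freedom at least 4.48), and counting error is the only error that reads alone give.

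limma 3.58.1 (R 4.3.3), with a mean-variance trend, was fitted to log2(value + 1) of the 13215 genes with a mean of at least 10, with Benjamini-Hochberg adjustment over all of them and a threshold of 0.05. Fold changes on that scale understate low genes. edgeR 4.0.16 (quasi-likelihood) and DESeq2 1.42.0 were run on recovered reads. Positions and principal transcript lengths come from GENCODE M21, and 5 of the listed symbols stood in the table under older names. All 34 genes, Trex2, and the 2 genes of smallest p in each other list are named. The genes and lists were chosen with earlier results of these data known, so counts over them are descriptions. The scripts were tested on simulated data.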

Additional observations from a re-analysis of the deposited data

Results flagged for a closer look

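In 7 of 90 groups of values (34 genes, Trex2 and 10 ratios in each genotype, on the log2 scale), 1 library stood apart by Dixon's test at the 95% level (gap over range above 0.71 for 5 libraries and 0.625 for 6). Chance flags about 1 in 20 groups. Knockout replicate 10 was high for Col1a2 (10127 normalized counts, the other knockout libraries reaching 7759) and for Col3a1 (27821 against at most 18863). Knockout replicate 9 was low for Eln (169 against at least 236). Among wild-type libraries, replicate 2 was low for Lox (397 against at least 908) and replicate 3 for Fbln1 (375 against at least 466). Replicate 4 was high for Ogn (186 against at most 127) and replicate 5 for Fmod (13.6 against at most 5.56).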

How the results depend on the processing

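Over 24 alternatives, 767 of 809 single-gene estimates kept the sign of the reported value, and 24 of the 34 genes kept it wherever they were tested (Fmod in 17 alternatives, the others in 24). The 10 others had log2 fold changes of at most 0.28 in size. Robust variances, no filter and a filter at a mean of 50 leave a gene's estimate unchanged, so those signs were fixed in advance. Settings that leave 1 library out share all other libraries with the main fit, so the alternatives are not independent. The median of the 34 genes was −0.31 to −0.18 when each library was left out in turn and −0.14, over 33 genes, without knockout replicates 9 and 12, a setting added after seeing the data. The number lower past the threshold was 0, but 3 with DESeq2, and 0 to 3 with each library left out, the 3 (Sparc, Thy1 and Pcolce) coming without wild-type replicate 4. The number lower at an unadjusted p under 0.05 was 7, but 3 with log10 depth as a covariate. It was 4 to 11 with each library left out, with 4 without wild-type replicate 3 and 11 without knockout replicate 10. The number higher was 1, but 2 with TMM scaling or robust variances, 0 with the depth covariate, 0 without knockout replicates 9 and 12, and 0 to 2 with each library left out.

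Past the threshold and lower, collagen synthesis had 2 of 24 genes with DESeq2 and 0 to 2 with a library left out. For the 28 other fibroblast genes these counts were 5 and 0 to 3. Higher, basement membrane had 2 of 14 genes with DESeq2 and 0 to 2 with a library left out. The 22 TGF-beta genes had 0 to 1 higher with a library left out. Among settings that leave 1 library out, the highest of these counts came without wild-type replicate 4. That library had the highest summed keratinocyte level in wild type. Over all genes DESeq2 called 2.15% lower and 2.21% higher, and limma without wild-type replicate 4 called 2.11% lower and 3.5% higher. No ratio passed in its 15 alternatives, and Trex2 was lower past the threshold in all 24. The cause of these changes was not tested. No paired analysis was made because the labels give no pairing of mice between genotypes. Fmod, at 1 to 65 reads a library, is limited by depth.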
